A study of Mus musculus with 4 samples.

Results

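The nuclear-encoded subunits of the mitochondrial respiratory chain were followed in the livers of 2 genotypes on 2 diets. Members were taken by gene symbol (the Ndufa, Ndufb, Ndufc, Ndufs, Ndufv, Sdh, Uqcr, Cox4 to Cox8 and Atp5 families), a rule that itself reads no measured value. Of 105 mouse symbols of this form, 83 were matched to a probe, out of 23462 genes matched in all. The other 22 comprised 4 protein-coding genes (Cox5b, Ndufb1, Ndufb4b and Ndufb4c) and 18 pseudogenes or transcribed copies, which were not analysed here. The 83 members comprised 74 ubiquitous subunits (35 of complex I, 4 of complex II, 8 of complex III, 10 of complex IV and 17 of complex V), 8 tissue isoforms of complex IV subunits, and Cox7a2l, which takes part in building supercomplexes.

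Liver RNA was measured on 4 one-colour arrays, 1 for each group. F/F mice carried loxP-flanked Lpiat1 alleles (the gene is now named Mboat7) without Cre, and LKO mice carried the same alleles together with Alb-Cre. The albumin promoter directs Cre to hepatocytes, so that other liver cells of LKO mice keep the gene. All were males on a C57BL/6 background, aged 24 weeks, fed chow or a high-fat diet (HFD) for 18 weeks from the age of 6 weeks. The labels do not say whether an array holds the RNA of 1 mouse or of several. With 1 array for each group, no difference has a replicate check, none was tested, and no p value is given.

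Each gene is given by its brightest probe. Values are its processed intensity divided by the 75th percentile of all spots of the same array (relative intensity), and differences are given as log2. The only error that could be measured was technical: the difference between replicate spots of a probe had an SD of 0.093 (log2). It was measured within arrays and mostly on other probes, since 1 member had a probe printed on more than 1 spot. This 1 SD is called the technical spread below, and it is not a detection limit for differences between arrays. Levels of different genes come from different probes and are not compared. Between 53.0% and 57.0% of the spots on an array were well above background, and no spot was saturated. Mboat7 was lower in LKO than in F/F on both diets, with log2 differences of -0.30 (chow) and -0.27 (HFD), although whether its probe lies in the deleted part was not examined. All 8 hepatocyte markers were well above background on all 4 arrays. Their summed relative intensity was 3270 in F/F chow, 3330 in LKO chow, 2730 in F/F HFD and 2290 in LKO HFD, whereas that of 12 macrophage markers was 115, 119, 168 and 258 in the same order. Markers of exocrine pancreas were also present, with sums of 62.0, 40.1, 34.3 and 72.6. Much of this sum came from Cela1 (35.7, 24.8, 20.5 and 21.6), so that it understates the differences of the other markers. Over the 12 markers with a value, the median log2 difference LKO minus F/F was -1.06 on chow and 1.87 on HFD. On HFD 11 of the 12 were at least 1.5-fold higher in LKO, against 8.07% of all genes. The part of pancreas RNA in the differences between arrays was not tested. In whole liver, fewer cells of a type and less RNA per cell cannot be told apart.

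The respiratory chain passes electrons from NADH (complex I, NADH:ubiquinone oxidoreductase) and from succinate (complex II, succinate dehydrogenase) through ubiquinone to complex III (the cytochrome bc1 complex), and on through cytochrome c to complex IV (cytochrome c oxidase), which reduces oxygen. Complexes I, III and IV pump protons, and complex V (ATP synthase) uses the gradient to make ATP. Most subunits are encoded in the nucleus and are known to be transcribed together, in part through the factors NRF-1, GABP, YY1 and the oestrogen-related receptors with the coactivators Ppargc1a and Ppargc1b. Hepatocytes are rich in mitochondria and oxidise much of the fatty acid that reaches the liver.

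Every one of the 74 ubiquitous subunits gave a signal well above background in each group, and they moved as a block with small steps. Relative to the 75th percentile of each array they were highest in LKO chow and lowest in LKO HFD. On chow, 71 of 74 were higher in LKO than in F/F, with a median difference of 0.12 (8.8% higher) and an SD among the subunits of 0.08. Among all genes with a value, 50.7% were higher in this comparison, and the median was 0.00. On HFD, 73 of 74 were lower in LKO, with a median of -0.16 (SD 0.08), where 54.1% of all genes were lower and their median was -0.03. HFD against chow gave a median of -0.04 in F/F (46 of 74 lower, SD 0.10, against 52.2% of all genes), a direction that turned under other scalings (up to 0.11), and of -0.32 in LKO (74 of 74 lower, SD 0.12, against 56.5% of all genes). Hepatocyte markers, also bright, had medians of 0.02, -0.23, -0.28 and -0.54 in the same order of comparisons. Over all processing tried these medians ran from -0.02 to 0.02, -0.31 to -0.07, -0.34 to 0.02 and -0.60 to -0.09. The part of a changed cell make-up in the subunits' values was not tested. The subunits varied less among themselves than all genes did, for which the SD was 0.36, 0.48, 0.61 and 0.71 in the 4 comparisons, and also less than the 2797 brightest genes described next (0.18, 0.30, 0.42 and 0.46). The mitochondrial ribosome genes described below came closer, with SDs of 0.10, 0.12, 0.17 and 0.19. On chow, genes of the tricarboxylic acid cycle (SD 0.08) and hepatocyte markers (0.04) varied no more than the subunits. The comparisons share arrays pairwise, so their directions are not independent of each other.

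**Figure D1:**
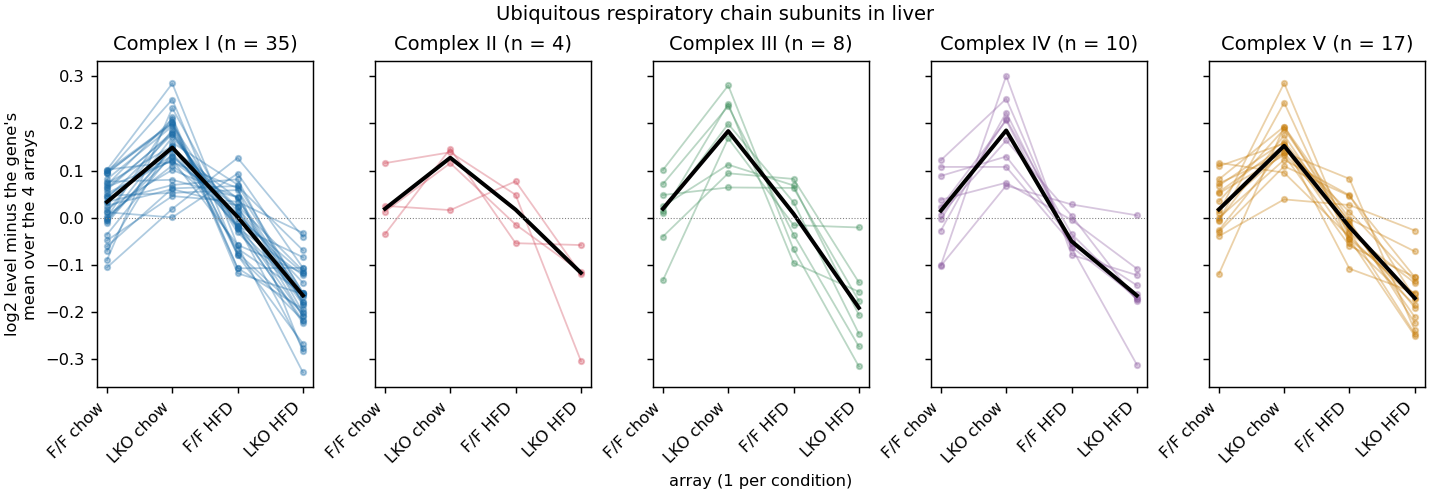
Log2 level of each ubiquitous subunit minus its own mean over the 4 arrays (y axis) in the 4 groups (x axis, 1 array each), by complex. Coloured lines join the values of 1 gene and the black line is the median of the complex: in every complex the median was highest in LKO chow and lowest in LKO HFD on this scale, an order that fewer subunits kept after quantile normalisation (27 highest in LKO chow and 19 lowest in LKO HFD).

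The order of the groups was shared as well. LKO chow was the highest array for 67 of the 74 subunits, and LKO HFD was the lowest for 67, while after quantile normalisation these numbers were 27 and 19, and after centring on the brightest genes (described next) 51 and 30. The full order LKO chow, F/F chow, F/F HFD, LKO HFD was seen for 44 subunits, and 17 had the F/F arrays exchanged. The genotype difference on HFD minus that on chow was negative for all 74, with a median of -0.29, from -0.48 (Atp5md) to -0.10 (Atp5g1). Of the 74, 70 were higher in LKO on chow and lower in LKO on HFD, against 26.4% of all genes and 39% of the brightest genes described next. For 38 of them both differences were beyond the technical spread, against 11.3% and 13.9%.

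Brightly hybridising genes in general showed part of this pattern. Of the 74 subunits, 73 were among the 2797 brightest of the 13981 genes that were well above background on all 4 arrays. Over these 2797 genes the median difference was 0.03 (LKO minus F/F on chow), -0.14 (LKO minus F/F on HFD), -0.08 (HFD minus chow in F/F) and -0.23 (HFD minus chow in LKO). LKO HFD was the lowest array for 60.1% of them, and LKO chow the highest for 34.9%. On HFD the median of the subunits in LKO against F/F (-0.16) was close to that of these genes, of which 72.8% were lower. In HFD against chow, 61.7% of them were lower in F/F and 78.6% in LKO. When each array was centred on the 2797 genes instead, a choice made after seeing the data, the medians of the ubiquitous subunits were 0.11, -0.03, 0.03 and -0.12. Quantile normalisation, which gives all arrays 1 distribution, left 0.08, -0.03, 0.11 and -0.04. The higher level in LKO on chow had a median between 0.08 and 0.13 in every processing tried, with 62 to 72 of the 74 subunits higher, against 57.6% of the 2797 genes. Settings that changed only the filter or the fold threshold could not move this median, since all 74 were above background on every array. On HFD the median of LKO minus F/F moved between -0.18 and -0.03, and for HFD minus chow in F/F it turned positive under several of them, up to 0.11. The difference of the genotype differences remained negative for 67 subunits after quantile normalisation and for 70 after centring on the bright genes, with medians of -0.12 and -0.16 (-0.04 and -0.03 for the bright genes themselves).

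**Figure D2:**
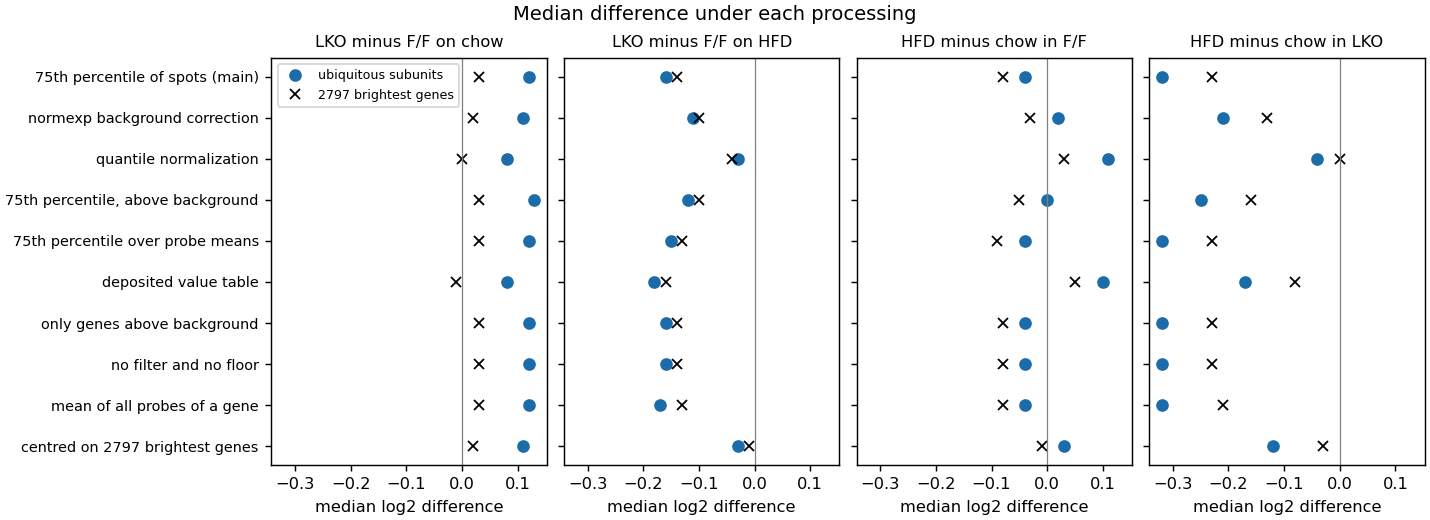
Median log2 difference (x axis) of the 74 ubiquitous subunits (circles) and of the 2797 brightest genes (crosses) under each processing (y axis), for the 4 comparisons. The circles for LKO minus F/F on chow stayed between 0.08 and 0.13, whereas in the 3 comparisons with an HFD array they moved with the crosses, and for HFD minus chow in F/F they crossed 0.

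Complex I, the entry point for electrons of NADH, gave medians of 0.11 (LKO minus F/F on chow), -0.18 (LKO minus F/F on HFD), -0.04 (HFD minus chow in F/F) and -0.32 (HFD minus chow in LKO) over its 35 subunits. On chow 34 were higher in LKO, and on HFD 34 were lower. Its 7 nuclear core subunits, which hold the flavin and the iron-sulfur clusters, were all lower in LKO than in F/F on HFD, within the narrow range of -0.24 (Ndufv1) to -0.13 (Ndufs7). On chow all 7 were higher by 0.00 (Ndufv1) to 0.23 (Ndufs1). Ndufs1, the largest core subunit, had relative intensities of 33.8 in F/F chow, 39.6 in LKO chow, 37.2 in F/F HFD and 31.8 in LKO HFD. It was thus highest in LKO on chow and lowest in LKO on HFD. Ndufv1, which binds NADH, was at 88.9, 89.2, 87.0 and 73.4 in the same order, so that LKO HFD alone stood apart on this scale. Its HFD minus chow difference in LKO ran from -0.303 to -0.003 over the processing tried. Ndufv2 was at 51.3, 55.5, 48.5 and 42.0. For Ndufs3 the LKO minus F/F difference on HFD was -0.23, and for Ndufs8, which carries 2 iron-sulfur clusters, -0.18.

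Among the 28 accessory subunits of complex I the spread was wider. The lowest in LKO against F/F on HFD was Ndufb3, a membrane arm subunit, at 41.8 in F/F chow, 42.3 in LKO chow, 40.7 in F/F HFD and 32.0 in LKO HFD (-0.35). The other 3 arrays lay close together. The highest was Ndufa12, with 42.6, 49.4, 39.5 and 39.6 (0.00), the only ubiquitous subunit not lower in LKO on HFD. Ndufb11, another membrane arm subunit, was at 147, 167, 132 and 109, and its HFD minus chow difference in LKO of -0.61 was the most negative of the 74. The difference was at least 1.5-fold there, but stayed between -0.61 and -0.29 over the processing tried. Ndufs4, needed for a stable NADH-binding module, was at 29.8, 37.2, 31.2 and 29.1, the highest of complex I in LKO against F/F on chow (0.32).

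Complex II is shared with the tricarboxylic acid cycle and is encoded entirely in the nucleus. Its 4 subunits mostly shared directions but differed in size. On chow 3 were higher in LKO. All 4 were lower in LKO than in F/F on HFD (-0.35 to -0.00), and lower on HFD than on chow in LKO (-0.44 to -0.13). Sdhb, the iron-sulfur subunit, was at 171 in F/F chow, 174 in LKO chow, 163 in F/F HFD and 128 in LKO HFD, a LKO minus F/F difference on HFD of -0.35, which made it the lowest of the 74 in that comparison. Sdhd, one of the membrane anchors, was at 69.1, 78.3, 68.2 and 68.0, so that its 3 other arrays were level and only LKO chow was higher. Sdha, the flavoprotein that oxidises succinate, was at 50.3, 54.1, 49.4 and 46.1. Sdhc, the second anchor, was at 24.2, 24.0, 25.1 and 21.9, with a difference of -0.01 on chow, within the technical spread. The difference of Sdhb on HFD stayed between -0.38 and -0.23 in all processing tried, and that of Sdhd between -0.03 and 0.12.

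Complex III had the widest swing between the diets, with medians over its 8 subunits of 0.17 (LKO minus F/F on chow) and -0.24 (LKO minus F/F on HFD). All 8 were higher in LKO on chow and all 8 lower on HFD. Uqcrc1, a core subunit facing the matrix, was at 47.0 in F/F chow, 53.5 in LKO chow, 47.7 in F/F HFD and 39.3 in LKO HFD (0.19 on chow and -0.28 on HFD). The F/F arrays were level, and the LKO arrays lay on either side of them. Uqcrc2, the partner core subunit, was at 59.7, 65.5, 64.9 and 55.8, and Uqcrfs1, the Rieske iron-sulfur protein that passes electrons on, at 65.7, 69.8, 67.7 and 56.0. Uqcrb, which takes part in ubiquinone binding, was at 93.9, 106, 83.6 and 70.4, and its HFD minus chow difference in LKO was -0.59, at least 1.5-fold, with a range over the processing tried of -0.59 to -0.34. Uqcr10, a small subunit near cytochrome c1, was at 144, 177, 156 and 155. It was the member of complex III that differed least between genotypes on HFD (-0.00), though its other probe gave -0.12.

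The 10 ubiquitous subunits of complex IV had medians of 0.16 (LKO minus F/F on chow) and -0.11 (LKO minus F/F on HFD), with all 10 at or above 0.00 on chow and all 10 lower on HFD, although the median of complex IV on HFD turned positive after quantile normalisation (0.04) and after centring on the bright genes (0.03, all 19 members). The largest difference on chow among all 74 subunits was that of Cox7a2, at 113 in F/F chow, 149 in LKO chow, 115 in F/F HFD and 111 in LKO HFD (0.40). Only LKO chow stood apart, and the difference kept between 0.36 and 0.41 in all processing tried. Cox6c was the lowest on HFD, at 170, 185, 149 and 126 (-0.25), with the order LKO chow, F/F chow, F/F HFD, LKO HFD. Cox4i1, which takes part in the regulation of the enzyme by ATP, was at 210, 215, 204 and 190. Cox6a1 was at 576, 593, 525 and 481, Cox6b1 at 15.1, 17.0, 16.6 and 16.3, Cox7b at 75.2, 87.1, 73.6 and 66.9, and Cox8a at 223, 249, 223 and 197. Of these, Cox6b1 was the closest to level on HFD (-0.02). Ndufa4, first described in complex I and later placed in complex IV, was at 92.8, 105, 87.5 and 81.3 and had the same order.

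In complex V, 16 of 17 subunits were higher in LKO on chow (median 0.12) and all 17 were lower on HFD (median -0.15, but 0.01 after quantile normalisation). Among its parts, the c ring, which turns in the membrane, had the medians nearest 0 in both genotype comparisons (0.06 and -0.05), but not in the diet comparisons (-0.09 and -0.32). The 3 genes that encode the same mature c subunit, Atp5g1, Atp5g2 and Atp5g3, were 0.05 to 0.08 higher in LKO on chow and 0.05 to 0.17 lower on HFD, of which only the -0.17 of Atp5g3 was beyond the technical spread. Atp5g1 was at 143 in F/F chow, 148 in LKO chow, 124 in F/F HFD and 119 in LKO HFD, so that its arrays were ordered by diet. Its other probe gave 0.03 for LKO minus F/F on HFD. Atp5g2 was at 93.7, 98.8, 98.0 and 94.4, the flattest of the 3, and Atp5g3 at 238, 249, 223 and 198. The 5 membrane subunits that help to join ATP synthase into dimers or sit beside the c ring were 0.11 (Atp5l) to 0.31 (Atp5mpl) higher in LKO on chow, and -0.53 (Atp5md) to -0.26 (Atp5mpl) in HFD against chow in LKO. Atp5md was at 116, 140, 111 and 96.5. Atp5k was at 125, 136, 130 and 104, the lowest of complex V in LKO against F/F on HFD (-0.32). The catalytic F1 beta subunit, Atp5b, was at 285, 281, 255 and 233 and the alpha subunit, Atp5a1, at 209, 228, 216 and 186. Atp5b had the one negative difference of complex V on chow (-0.02), within the technical spread, while its other probes gave 0.07 and 0.18.

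**Figure D3:**
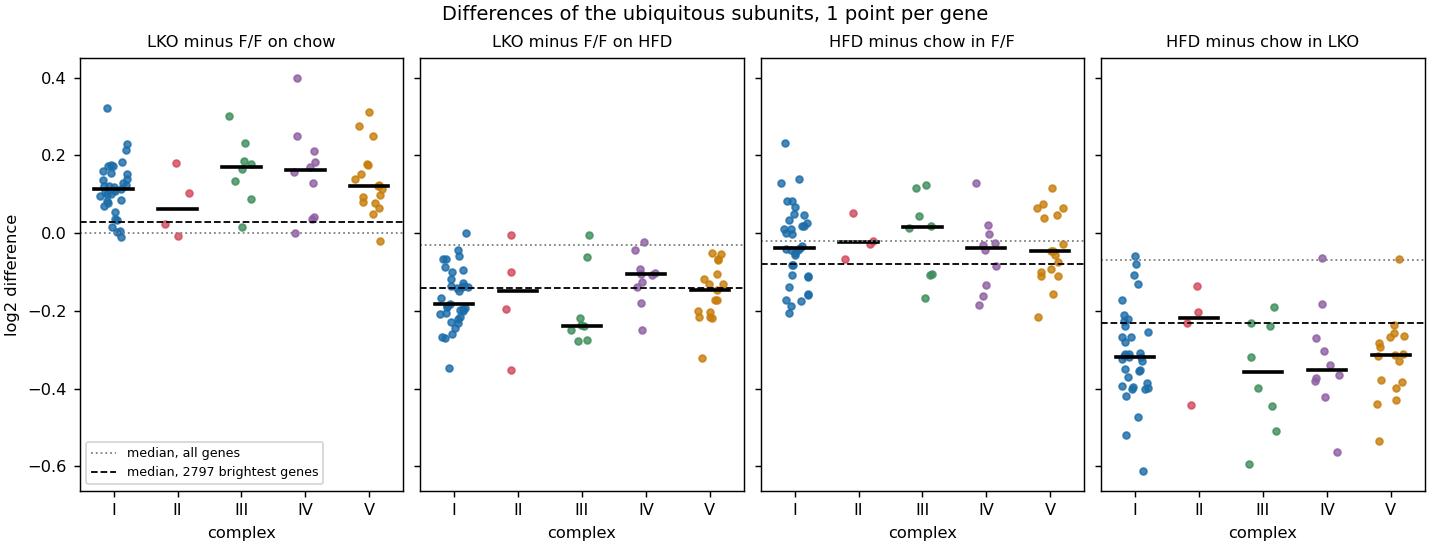
Log2 difference of each ubiquitous subunit (points) in the 4 comparisons, by complex (x axis). Solid bars are the medians of the complexes, the dotted line is the median of all genes and the dashed line that of the 2797 brightest genes. On chow the medians of the complexes, 0.06 to 0.17, lay above both lines, and in LKO against F/F on HFD they lay on either side of the dashed line.

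The medians of the complexes lay close to each other. In HFD against chow in LKO, the medians of the ubiquitous subunits were -0.32 (I), -0.22 (II), -0.36 (III), -0.35 (IV) and -0.31 (V), while the SD among the subunits of 1 complex was 0.10 to 0.15. After quantile normalisation the medians over all members, isoforms included, turned positive in this comparison for complexes II (0.02), IV (0.10, from -0.28) and V (0.00). Across the 74 subunits, the difference between genotypes on chow and that on HFD, which share no array, had a Pearson correlation of 0.33 (Spearman 0.23), given as a description, since subunits measured on the same arrays are not independent. The 2797 brightest genes gave 0.22 (Spearman 0.24). For HFD against chow the 2 genotypes gave 0.63 (Spearman 0.58) over the subunits and 0.75 (Spearman 0.70) over the bright genes. Some members had further probes, 21 of which gave a value. These had the same sign as the probe used in 18 of 21 cases on chow, 19 on HFD, 18 in HFD against chow in F/F and 21 in LKO, with a median gap of 0.04 or 0.05.

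Because the ubiquitous subunits moved together, the DNA before their genes was searched for the motifs of factors known to act on respiratory genes. RefSeq windows of 300 bases (assembly GRCm38.p6, 250 before and 50 after the annotated start) were found for 62 of the 74 subunits, 67 windows in all, and were set beside all 32851 windows of the table. On either strand, the core of the NRF-1 site (GCATGCG) was in 16.4% of the subunits' windows against 3.58% of all, the ETS motif bound by GABP (CCGGAAG) in 25.4% against 8.86%, the YY1 motif (ATGGCGG) in 16.4% against 4.05%, and the nuclear receptor motif of the oestrogen-related receptors (AAGGTCA) in 11.9% against 4.72%. At least 1 of these 4 was in 36 of 67 windows (53.7%) against 19.0% of all and 30.2% of the windows rich in CG dinucleotides described next. Matches on both strands at overlapping positions, as the nearly palindromic NRF-1 core gives, count as 1 window. The subunits' windows were also richer in CG dinucleotides, with a median of 19 against 7. In the 14281 windows of all genes with at least 10 of these, the shares were 6.93%, 17.3%, 8.08% and 2.45%, each below that of the subunits. The Sp1 motif (GGGCGG) was in 38.8% against 35.7% of all windows, the CCAAT box in 41.8% against 37.4% and the TATA box (TATAAA) in 10.4% against 13.6%. Among the windows rich in CG dinucleotides these shares were 69.8%, 35.7% and 5.63%, above the subunits' share for Sp1 and below it for the CCAAT and TATA boxes. A match is a description of letters and shows no binding.

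One window for each complex that holds the NRF-1 core is printed, together with the windows of Cox7a2, the subunit with the largest difference on chow, of its tissue isoform Cox7a1 and of Cox8b. Each runs from 200 bases before to 30 after the start, 5′ to 3′ on the strand of the gene, with matches to the NRF-1, ETS, YY1, nuclear receptor and TATA motifs in capitals (Sp1 and CCAAT matches are not marked). The coordinates are Ndufa8 (chr2:36049309-36049538, minus strand), Sdhb (chr4:140961071-140961300, plus strand), Uqcr11 (chr10:80406792-80407021, minus strand), Cox6a1 (chr5:115348929-115349158, minus strand) and Atp5k (chr5:108434370-108434599, minus strand). The 3 windows without one of the first 4 motifs are those of Cox7a2 (chr9:79759824-79760053, minus strand), Cox7a1 (chr7:30183971-30184200, plus strand) and Cox8b (chr7:140900417-140900646, minus strand).
Ndufa8: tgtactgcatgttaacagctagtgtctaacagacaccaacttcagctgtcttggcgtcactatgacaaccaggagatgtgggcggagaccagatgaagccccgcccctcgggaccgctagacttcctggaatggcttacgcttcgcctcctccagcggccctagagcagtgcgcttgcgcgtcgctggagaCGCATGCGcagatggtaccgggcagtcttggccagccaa
Sdhb: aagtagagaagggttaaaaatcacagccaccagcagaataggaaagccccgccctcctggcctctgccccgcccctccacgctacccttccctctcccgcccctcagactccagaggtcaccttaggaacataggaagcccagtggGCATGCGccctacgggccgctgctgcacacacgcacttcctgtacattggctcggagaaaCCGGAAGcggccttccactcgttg
Uqcr11: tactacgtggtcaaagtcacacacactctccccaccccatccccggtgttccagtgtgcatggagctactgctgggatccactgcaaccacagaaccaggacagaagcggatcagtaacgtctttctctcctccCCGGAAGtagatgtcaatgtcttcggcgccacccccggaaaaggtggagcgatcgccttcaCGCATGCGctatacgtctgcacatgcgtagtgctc
Cox6a1: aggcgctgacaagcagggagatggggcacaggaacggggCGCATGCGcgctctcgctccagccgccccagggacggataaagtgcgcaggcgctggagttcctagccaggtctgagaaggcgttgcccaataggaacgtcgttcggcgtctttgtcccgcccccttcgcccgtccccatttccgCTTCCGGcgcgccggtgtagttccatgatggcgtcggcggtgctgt
Atp5k: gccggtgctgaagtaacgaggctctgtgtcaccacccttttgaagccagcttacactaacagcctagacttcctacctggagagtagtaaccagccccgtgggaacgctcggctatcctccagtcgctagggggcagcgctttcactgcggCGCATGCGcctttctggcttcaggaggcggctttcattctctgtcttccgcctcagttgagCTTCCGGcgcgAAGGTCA
Cox7a2: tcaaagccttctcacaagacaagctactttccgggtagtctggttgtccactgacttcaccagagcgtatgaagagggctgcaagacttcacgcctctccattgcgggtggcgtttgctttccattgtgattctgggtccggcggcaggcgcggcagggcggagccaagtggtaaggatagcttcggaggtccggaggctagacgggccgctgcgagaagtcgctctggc
Cox7a1: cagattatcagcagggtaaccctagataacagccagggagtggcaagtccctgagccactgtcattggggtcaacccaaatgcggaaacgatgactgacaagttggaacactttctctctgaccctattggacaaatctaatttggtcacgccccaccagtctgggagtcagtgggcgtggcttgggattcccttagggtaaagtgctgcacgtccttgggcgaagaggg
Cox8b: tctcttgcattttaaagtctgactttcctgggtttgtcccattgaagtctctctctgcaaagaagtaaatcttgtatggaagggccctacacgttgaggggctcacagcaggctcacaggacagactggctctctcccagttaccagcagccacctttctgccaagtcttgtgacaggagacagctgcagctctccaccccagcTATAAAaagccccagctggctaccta
In Sdhb the NRF-1 core began 54 bases before the start, and in Atp5k, where it began 49 bases before the start, an ETS motif and a nuclear receptor motif followed after the start. In Cox6a1 the distance was 161 bases and an ETS motif began 16 bases before the start. The windows of 4 tissue isoforms (Cox6b2, Cox7a1, Cox7b2 and Cox8b) held none of the 4 motifs, while 2 of them held the letters TATAAA on either strand. In Cox8b this match began at position 5 after the annotated start, so the letters alone do not make it a TATA box.

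Tissue isoforms replace a ubiquitous subunit of complex IV in heart, skeletal muscle, brown fat, lung or testis, and several stood apart from the block. Of all 83 members, those at least 1.5-fold different were 1 higher and 1 lower in LKO against F/F on chow (3.52% and 3.46% of all genes), 3 higher and 1 lower on HFD (8.07% and 6.08%), 3 higher and 1 lower for HFD against chow in F/F (13.2% and 9.60%) and 2 higher and 2 lower in LKO (15.4% and 11.7%). Apart from Ndufb11 and Uqcrb in the last comparison, every one was a tissue isoform. At 2-fold, 1 member was higher on chow in LKO (1.11% of all genes, with 1.03% lower), none differed on HFD (2.36% higher and 1.91% lower), 1 was higher and 1 lower for HFD against chow in F/F (5.21% and 2.94%), and none in LKO (8.12% and 4.07%). At a lower threshold, a ratio of 5 to 4, 4 members were higher in LKO on chow (9.81% of all genes), 3 were lower in LKO on HFD (16.4%) and 35 were lower on HFD than on chow in LKO (27%). Cox7a2l, which helps to join complexes III and IV, was level at 77.9 in F/F chow, 81.4 in LKO chow, 75.6 in F/F HFD and 78.1 in LKO HFD, with differences between -0.06 and 0.06.

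Cox7a1, the heart and skeletal muscle form of the subunit that Cox7a2 supplies elsewhere, had relative intensities of 1.67 in F/F chow, 2.24 in LKO chow, 2.60 in F/F HFD and 4.29 in LKO HFD. It was higher in LKO on both diets and higher on HFD in both genotypes. The log2 differences were 0.42 (LKO minus F/F on chow), 0.72 (LKO minus F/F on HFD), 0.64 (HFD minus chow in F/F) and 0.94 (HFD minus chow in LKO). Over all processing tried they stayed at 0.39 to 0.45, 0.68 to 0.84, 0.60 to 0.78 and 0.84 to 1.14, positive throughout. Ndufa4l2, the isoform of Ndufa4 known to be raised by hypoxia, was at 0.307, 0.360, 0.531 and 0.626, a difference by diet of 0.79 in F/F and 0.80 in LKO, which shrank to 0.43 and 0.47 in the processing that gave the smallest values, below 1.5-fold. Both genes had the same order of the arrays, from F/F chow up to LKO HFD.

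Cox6a2, the isoform of Cox6a1 of heart and skeletal muscle, was at 0.0413 in F/F chow, 0.160 in LKO chow, 0.125 in F/F HFD and 0.202 in LKO HFD. F/F chow was far below the other 3, and the LKO minus F/F difference was 1.96 on chow and 0.68 on HFD. These signals were low, and after normexp background correction the difference on chow was 0.53. Some markers of striated muscle had the same order of the arrays, and others did not. Tnni2 (fast skeletal troponin I) was at 0.107, 0.447, 0.234 and 0.475 and Acta1 (skeletal actin) at 0.0383, 0.147, 0.0818 and 0.161, as for Cox6a2, though Acta1 was not well above background in F/F chow. Mylpf (0.144, 0.250, 0.145 and 0.155) and Tnnt3 (0.206, 0.398, 0.256 and 0.276) were highest in LKO chow, as was Myh4, and Actn3 was well above background in F/F chow alone. Over the whole list of 10 muscle markers, 4, 7, 5 and 6 were well above background on the 4 arrays, with summed relative intensities of 0.657, 1.59, 0.819 and 1.27, highest in LKO chow, and Ckm and Casq1 were not well above background on any. The part of muscle RNA in the values of Cox6a2 was not tested.

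Cox8b, the isoform of Cox8a of heart, skeletal muscle and brown fat, was at 0.313 in F/F chow, 0.206 in LKO chow, 0.100 in F/F HFD and 0.169 in LKO HFD. It was highest in F/F chow and lowest in F/F HFD, so that LKO minus F/F was -0.61 on chow and 0.75 on HFD, and HFD minus chow -1.64 in F/F. The directions held in all processing tried, but the sizes did not, with -0.65 to -0.15, 0.22 to 0.87 and -1.65 to -0.70 in the same order, so that both genotype differences were below 1.5-fold at their smallest. Ucp1, the defining marker of brown fat, was at 0.142 in F/F chow and 0.0486 in LKO HFD and not well above background on the other 2 arrays. Of the 7 brown fat markers, Dio2, Kcnk3 and Otop1 were not well above background on any array, and the summed relative intensity of the list was 41.5, 34.2, 38.4 and 17.6. Most of this sum came from Elovl3 (39.9, 21.8, 13.2 and 9.20) and Cidea (1.33, 12.3, 25.1 and 8.31), and Cidea was lowest in F/F chow and highest in F/F HFD, opposite to Cox8b. In a list of 8 adipocyte markers, Adipoq (0.314, 0.151, 0.0993 and 0.154) and Retn (0.264, 0.215, 0.0487 and 0.0921) had the same highest and lowest arrays as Cox8b. The others did not, and the summed relative intensity of that list was 25.5, 41.7, 90.1 and 58.2. The part of brown fat or other fat RNA in the values of Cox8b was not tested.

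The remaining isoforms gave little signal. Cox4i2, the lung form of Cox4i1, was at 0.469, 0.507, 0.426 and 0.371, with the order of the ubiquitous subunits, and Cox6b2, the testis form of Cox6b1, at 0.259, 0.280, 0.234 and 0.242. Cox8c, a testis form of Cox8a, was well above background in F/F HFD alone, where it was at least 1.56-fold higher than in LKO HFD and at least 1.17-fold higher than in F/F chow. For a group below background this bound uses the lowest signal well above background on that array. Cox7b2, the testis form of Cox7b, was not well above background on any array.

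**Figure D4:**
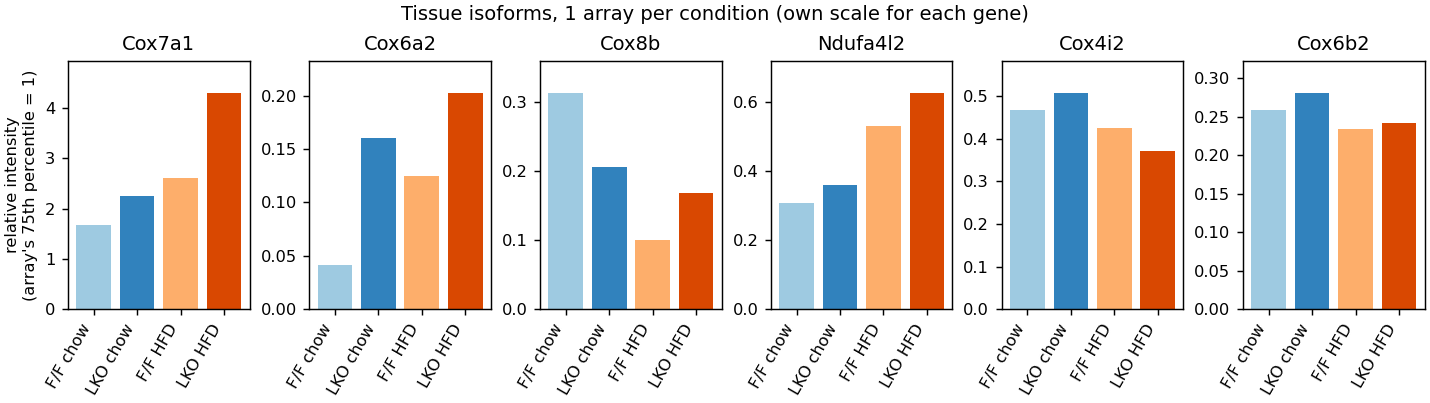
Relative intensity (y axis, 75th percentile of the array set to 1, own scale for each gene) of 6 tissue isoforms in the 4 groups (x axis, 1 array each, no error can be given). Cox7a1 and Ndufa4l2 were highest in LKO HFD and lowest in F/F chow, Cox8b was highest in F/F chow, and Cox6a2 was lowest there.

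Other genes of mitochondrial respiration were compared with the subunits by lists. The 51 assembly factors on the arrays had medians of 0.07 (LKO minus F/F on chow), -0.14 (LKO minus F/F on HFD), 0.04 (HFD minus chow in F/F) and -0.12 (HFD minus chow in LKO). The extremes were Sco2 and Tmem126b (0.48) in the first of these, and Ndufaf1 (-0.46) and Tmem186 (0.52) in the second. At 1.5-fold, 1 was lower on chow (Sco2, a copper chaperone of complex IV, -0.70), none differed in LKO against F/F on HFD, 1 was higher on HFD in F/F, and 1 was higher and 3 were lower on HFD in LKO, against 3.46% of all genes lower in the first comparison, 8.07% higher and 6.08% lower in the second, 13.2% higher in the third, and 15.4% higher and 11.7% lower in the last. The 21 electron carriers and their enzymes had medians of 0.10, -0.21, 0.03 and -0.24 in the same order. Cytochrome c itself (Cycs), which joins complexes III and IV, was at 74.6, 83.3, 69.6 and 63.8, and Cyc1, the cytochrome c1 of complex III, at 65.6, 70.3, 59.2 and 51.2, both in the order of the subunits. Coq10b, a ubiquinone-binding protein, was at 6.85, 6.67, 6.71 and 3.79, so that LKO HFD alone was low (-0.82 against F/F HFD, -0.85 to -0.68 in all processing tried).

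The 13 genes of the tricarboxylic acid cycle had medians of 0.17, -0.14, 0.09 and -0.21, and all 13 were at or above 0.00 in LKO against F/F on chow. The RNA of citrate synthase (Cs) was at 33.3 in F/F chow, 33.4 in LKO chow, 42.2 in F/F HFD and 42.5 in LKO HFD, thus ordered by diet and level between genotypes. It is the activity of this enzyme that is often used as a measure of mitochondrial mass, and activity was not measured here. Fumarase (Fh1) was at 105, 119, 72.3 and 61.2, at least 1.5-fold lower on HFD in LKO (-0.96). The 78 proteins of the mitochondrial ribosome, which makes the subunits encoded in mitochondrial DNA, had medians of 0.09, -0.13, 0.05 and -0.19. In LKO against F/F, 61 of 78 were higher on chow and 70 lower on HFD (50.7% and 54.1% of all genes). The 13 mitochondrially encoded subunits were not matched to a probe and were not analysed here. In these 4 lists the medians on chow stayed positive in all processing tried (0.04 to 0.17), while those for HFD against chow in LKO reached 0.08 (assembly factors), -0.04 (electron carriers), 0.00 (tricarboxylic acid cycle) and 0.01 (ribosome).

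**Figure D5:**
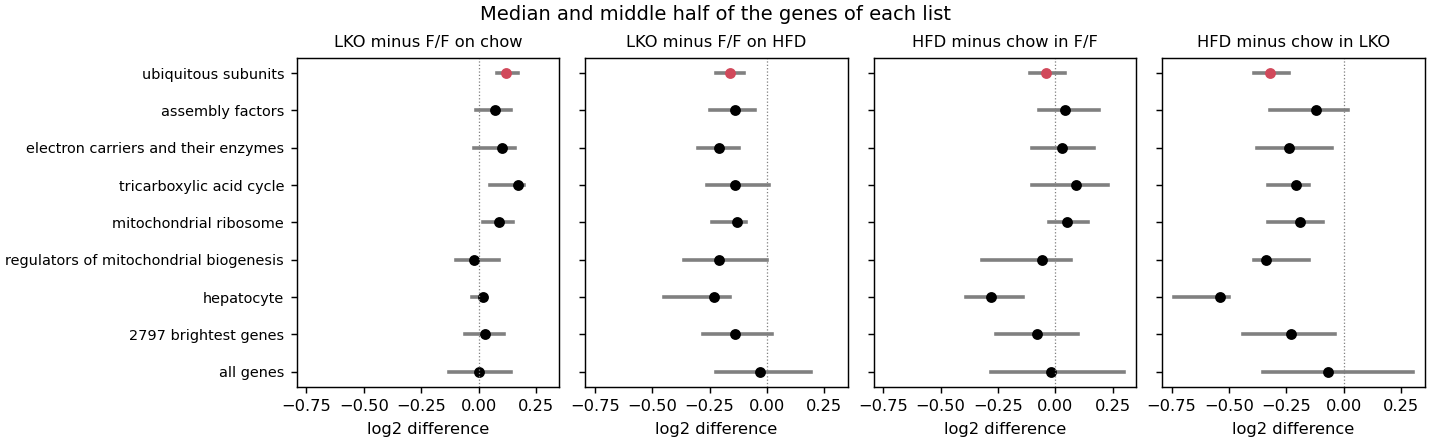
Median (points) and middle 50% (bars) of the log2 differences (x axis) of the ubiquitous subunits, of related mitochondrial gene lists, of hepatocyte markers, of the 2797 brightest genes and of all genes (y axis), in the 4 comparisons. The bar of the subunits was narrower than those of all genes and of the 2797 brightest genes in each comparison. In HFD against chow in LKO the hepatocyte markers lay lowest with a median of -0.54, which ran from -0.60 to -0.09 over the processing tried.

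The 18 regulators of mitochondrial biogenesis did not share 1 direction. Their medians were -0.02, -0.21, -0.06 and -0.34 in the same order of comparisons. Ppargc1a, the coactivator best known for raising respiratory genes, was at 2.02 in F/F chow, 1.31 in LKO chow, 3.08 in F/F HFD and 2.48 in LKO HFD. Both LKO arrays were below the F/F array of the same diet (-0.62 on chow, -0.31 on HFD), and both HFD arrays were above the chow arrays (0.61 in F/F and 0.92 in LKO). Ppargc1b was at 1.91, 1.21, 1.92 and 1.04, at least 1.5-fold lower in LKO on both diets (-0.65 and -0.89), with -0.69 to -0.58 and -0.91 to -0.65 in all processing tried. Esrra, an oestrogen-related receptor, was at 13.1, 14.3, 13.2 and 11.3, highest in LKO chow and lowest in LKO HFD. Nrf1 was at 0.689, 0.651, 0.579 and 0.614, Gabpa at 2.09, 1.82, 1.62 and 1.39, and Tfam, which packs mitochondrial DNA, at 5.46, 5.43, 5.57 and 4.30, so that only LKO HFD was low for Tfam. Ucp2 and Ucp3, carriers related to the uncoupling protein of brown fat, were both higher on HFD, at 0.619, 0.600, 1.38 and 1.68 for Ucp2 and 0.757, 0.765, 1.62 and 1.99 for Ucp3.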

How the data were processed

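Liver RNA of 4 groups was hybridised by the authors to 4 one-colour Agilent mouse arrays and scanned with Feature Extraction 12.0.3.1. The deposited intensity of each spot is the background-subtracted processed signal. The series also holds a deposited table of linear intensity values, which equal the processed signal times a factor for each array (2.60, 2.63, 2.41 and 2.10), and which served as an alternative. Each array holds 62976 spots, and the number of arrays limits the precision.

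The log2 processed signal minus the 75th percentile of its array was averaged over spots of a probe, without control and outlier spots. Of 56605 probes, 33767 were matched by accession to 23462 genes of a RefSeq table, and the brightest probe stood for a gene. A probe not well above background on 1 array of a comparison gave a bound. Members, gene lists, motifs and thresholds (1.5-fold) were chosen with earlier results of these data known. Genes named with values were members at least 1.5-fold different, core subunits of complexes I to III, F1 alpha and beta, the c subunit genes, tissue isoforms with their partners, the extremes of each complex on HFD, the extremes of related lists and 6 regulators. Others (such as Ndufs4, Cox6c, Atp5md, Cycs, Cs, Ucp2 and Ucp3) were chosen after their values were seen. The values of 1 member that this rule names are not reported here. Normexp used an offset of 50 (limma 3.58.1, R 4.3.3), and 12 alternative settings were tried. The scripts (Python 3.11.15, pandas 2.3.3, numpy 2.4.6) were tested on simulated data. Promoter windows came from RefSeq, assembly GRCm38.p6.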

Additional observations from a re-analysis of the deposited data

Results flagged for a closer look

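The genotype difference had opposite signs on the 2 diets for several groups of subunits, and these differences between diets were not tested, since each group has 1 array. The median log2 difference LKO minus F/F over all members was 0.12 on chow and -0.14 on HFD. It was 0.11 and -0.18 for complex I, 0.17 and -0.24 for complex III, 0.16 and -0.10 for complex IV, and 0.12 and -0.15 for complex V. Cox8b, the muscle and brown fat isoform, ran the other way, with -0.61 on chow and 0.75 on HFD. Over the processing tried these were -0.65 to -0.15 and 0.22 to 0.87.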

How the results depend on the processing

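Each group has 1 array, so neither biological nor hybridisation error could be measured. No paired analysis was possible because each group has 1 array and no test was made. The median of the ubiquitous subunits for LKO minus F/F on chow stayed between 0.08 and 0.13 under all settings, though filters and fold thresholds could not change it. Medians of the comparisons with an HFD array moved with the setting. The deposited table, which scales all genes of an array by 1 factor, moved them as well. Many subunits have pseudogene copies that a probe could also detect, which was not examined. In what follows the cause of each shift was not tested, and values are log2 differences unless called counts.

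After quantile normalisation the medians of complexes I to V for HFD minus chow in F/F were 0.098, 0.112, 0.146, 0.137 and 0.116 (all members 0.110). For HFD minus chow in LKO they were -0.072, 0.020, -0.038, 0.100 and 0.004 (all members -0.037). For LKO minus F/F on HFD the medians of complexes I, III, IV and V were -0.066, -0.104, 0.041 and 0.008 (all members -0.022). The genotype difference on HFD minus that on chow had a median of -0.114 over all members. Many single subunits turned positive. Counts of the 74 ubiquitous subunits above 0 were 29 (HFD minus chow in LKO), 25 (LKO minus F/F on HFD) and 63 (HFD minus chow in F/F). With the scaling used in the Results these counts were 0, 1 and 28. Examples for HFD minus chow in LKO were Atp5a1 0.173, Atp5b 0.250, Atp5g1 0.004, Atp5g3 0.121, Cox4i1 0.264 and Cox6a1 0.241. Others were Cox8a 0.100, Sdha 0.002, Sdhc 0.055, Sdhd 0.039 and Uqcr10 0.230. Examples for LKO minus F/F on HFD were Atp5b 0.118, Atp5g3 0.021, Cox4i1 0.075, Cox6a1 0.018, Cox8a 0.015 and Ndufa4 0.033. For HFD minus chow in F/F they included Atp5b 0.099, Cox6a1 0.257 and Ndufb11 0.023.

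After centring on the 2797 brightest genes, a setting chosen after seeing the data, the medians of complexes I to V for HFD minus chow in LKO were -0.119, -0.018, -0.159, -0.085 and -0.115 (all members -0.115). For LKO minus F/F on HFD they were -0.060, -0.025, -0.115, 0.026 and -0.024 (all members -0.021), and the difference of the genotype differences was -0.161. Counts of the 74 ubiquitous subunits above 0 were 10 for HFD minus chow in LKO and 25 for LKO minus F/F on HFD. With the scaling used in the Results these counts were 0 and 1. Subunits that turned positive included Cox4i1 0.017, Sdhc 0.064 and Uqcr10 0.010 for HFD minus chow in LKO. For LKO minus F/F on HFD they included Cox4i1 0.020, Ndufa4 0.017 and Sdha 0.023.

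With the deposited table the medians of complexes I to V for HFD minus chow in F/F were 0.097, 0.112, 0.152, 0.098 and 0.088 (all members 0.100), and in LKO -0.172, -0.070, -0.211, -0.138 and -0.168 (all members -0.168). Counts of the 74 ubiquitous subunits above 0 were 62 in F/F and 7 in LKO. With the scaling used in the Results these counts were 28 and 0. Subunits that turned positive included Cox6a1 0.001 and Ndufa12 0.028 in F/F, and Sdhc 0.012 in LKO. After normexp background correction the medians of complexes I, II and IV for HFD minus chow in LKO were -0.191, -0.107 and -0.186 (all members -0.207), and Cox6a2 turned to -0.069.

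Counts of members at least 1.5-fold lower on HFD than on chow in LKO were 0 with the 75th percentile taken from detected probes, centring, the deposited table, normexp and quantile normalisation, and 1 with the mean of all probes. Those lower in LKO than in F/F on HFD numbered 0 after centring, normexp and the filter to genes well above background on all 4 arrays, and 2 without filter or floor. With normexp, 1 member was higher in each of HFD against chow in F/F, HFD against chow in LKO, and LKO against F/F on HFD, while 0 were higher and 0 lower in LKO on chow. Among ubiquitous subunits alone 0 were higher in any comparison, and 0 lower except for HFD against chow in LKO. At a ratio of 5 to 4, 4 members were higher in LKO on chow, 3 were lower in LKO on HFD and 35 were lower on HFD in LKO. At 2-fold, 1 was higher on HFD in F/F, 0 were higher on HFD in LKO or in LKO on HFD, and 0 were lower in HFD against chow in LKO or in LKO against F/F on either diet.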
